A study of Mus musculus with 6 samples.

Results

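Colon macrophages from 2 of the series' single-cell RNA libraries were set side by side: the macrophage library of wild-type (WT) transplant recipients and that of mice with graft-versus-host disease (GVHD). A barcode counted as a cell if 500 or more genes were detected and no more than 10% of its transcripts were mitochondrial. The cells compared were chosen by a myeloid gate on measured values. It kept cells with at least 5 unique molecular identifiers (UMIs, each standing for 1 captured transcript) of Csf1r, Lyz2 and Cd68 together. Kept cells had at most 1 UMI of 6 T-cell genes (Cd3d, Cd3e, Cd3g, Trac, Trbc1, Trbc2), none of the epithelial gene Epcam, and under 1% of their UMIs from S100a8 and S100a9. This left 5419 cells, 3365 in the WT library and 2054 in the GVHD library, of 12253 barcodes in both and 60605 in the 6 libraries of the series. Levels of the 12 gate genes are therefore a description only.

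The GVHD mice had received bone marrow together with spleen cells, and a further group (BM) had received bone marrow alone. The WT recipients and the IL-34-/- recipients are transplant recipients that differ in the gene for interleukin 34. Donor-derived CD11b+ CD64+ macrophages were sorted from the colon in all 4 groups, and donor T cells of WT and IL-34-/- recipients made up the other 2 libraries. Whether the WT recipients were given spleen cells, and the strains, ages, sexes and number of mice behind each library, could not be read from the labels. They list both 5′ and 3′ 10x kits without saying which served which library, so recipient group, library and kit cannot be told apart. There was 1 library on each side and therefore no test. Each 95% interval below covers counting error only, not differences between mice or preparations.

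Macrophages of the gut wall are renewed from blood monocytes, which lose Ly6C and CCR2 and gain complement C1q, MERTK and scavenger receptors as they mature. In inflamed tissue that path stalls, and cells making interleukin 1β, interleukin 12, interleukin 23 and the inducible nitric oxide synthase NOS2 build up. GVHD is the attack of donor T cells on the recipient, in which interferon from T cells acts on macrophages. CSF1R, the receptor for CSF1 and IL-34, carries the survival signal of these cells.

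The gated cells held 50966208 UMIs in the WT library and 42710951 in the GVHD library, with medians of 12787 and 16449.5 UMIs and 3404 and 3959 genes per cell. They made up 64.2% (62.8 to 65.5) of the filtered cells of the WT library and 76.1% (74.5 to 77.7) of those of the GVHD library, as shares with exact Clopper-Pearson intervals. Mitochondrial genes took a median of 1.95% of a cell's UMIs in the WT library and 3.28% in the GVHD library. At the edges of the gate, 30 WT and 11 GVHD cells had exactly 5 myeloid UMIs, and 39 and 11 cells with exactly 4 were left outside. The S100a8 and S100a9 share was between 0.2% and 1% in 240 WT cells (7.13%) and in 5 GVHD cells (0.243%). Csf1r was found at 488 and 501 CPM (UMIs of a gene per 1000000 UMIs of the gated cells), and Itgam, which codes for CD11b, at 264 and 320 CPM. Fcgr1, which codes for the sorted marker CD64, was at 101.6 CPM in the WT library and 95.4 CPM in the GVHD library. All 16 T-cell markers together summed to 9.01 and 11.1 CPM, and 11 stromal markers to 12.8 and 18.1 CPM. Epithelial and neutrophil markers were less even and are given with the results they touch. Under 2 UMIs of 6 dendritic-cell genes (Flt3, Zbtb46, Xcr1, Clec9a, Ccr7, Fscn1) were found in 2641 of 3365 WT and 1614 of 2054 GVHD cells. Under 2 UMIs of 4 cycling genes (Mki67, Top2a, Ccna2, Birc5) were found in 2223 and 1065 cells. The gate therefore did not remove cells with dendritic or cycling transcripts, and their part in the differences below was not tested.

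The GVHD library shared 2502 of its 4169 barcodes with the BM library, against 5 with the WT library. Of its 2054 gated cells 1821 had a barcode found in another library, as had 39 of the 3365 gated WT cells. In the 2502 shared pairs the GVHD copy had more UMIs in 2486, with medians of 17372 UMIs against 1515 in the BM copy. Leaving out every shared barcode kept only 233 gated GVHD cells, with a median of 3854 UMIs and 944182 UMIs in all. Results are therefore given with all gated cells, and with shared barcodes left out where that changes them. Levels in the BM library are given for its 1960 gated cells whose barcode the GVHD library does not hold. Against its label, the library of WT T cells held 7263 cells that passed the macrophage gate and 1648 that passed the T-cell gate. Its macrophages serve below as a further measurement of WT recipients, although nothing ties them to the mice of the macrophage library.

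Most genes stood at like levels in the 2 libraries. Of 9357 genes with at least 5 CPM in 1 of them, 486 were at least 1.5-fold higher in the WT library, a share of 5.19%, and 595 were at least 1.5-fold lower, a share of 6.36%. At 4-fold the counts were 43 (0.46%) and 22 (0.235%). The median gene had a log2 ratio of -0.04. Among genes past 1.5-fold, 44.96% were higher in the WT library, a split that moved to 55.5% with TMM scaling, 59.5% with median-of-ratios scaling and 38.4% without mitochondrial and ribosomal genes in the denominator. Either direction together, 11.6% of measured genes were past 1.5-fold here, 2.64% between the IL-34-/- and WT libraries, and 33.7% between the GVHD library and the BM cells with no shared barcode. These comparisons share libraries and are given side by side only.

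**Figure D1:**
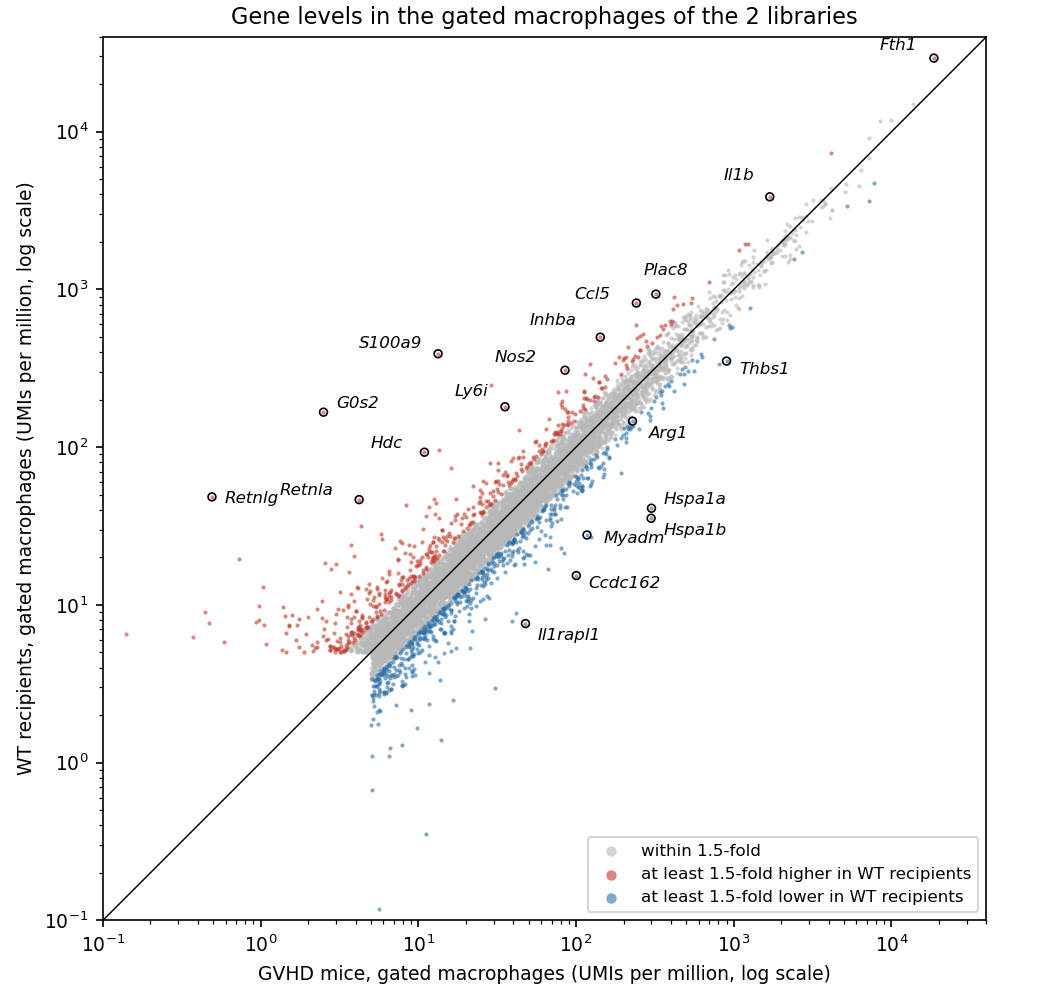
Level of each of 9357 measured genes in the gated macrophages of GVHD mice (horizontal) and of WT recipients (vertical), in CPM on log axes. Red points are the 486 genes at least 1.5-fold higher in WT recipients, blue points the 595 at least 1.5-fold lower, grey points the rest, and the line marks equal levels. G0s2 and Retnlg stand furthest above the line, Hspa1a and Hspa1b far below it.

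About 1 in 2 measured members of a list of proinflammatory genes were at least 1.5-fold higher in the WT library. Of 25 measured members of the proinflammatory list, 13 were at least 1.5-fold higher and 1 was at least 1.5-fold lower. Over all measured genes these shares were 5.19% and 6.36%. This list and those below were chosen with earlier results of these data known, so their counts are a description only. The list's median log2 ratio was 0.59. With a looser cell filter, or with 10 myeloid UMIs asked for in the gate, 12 members were at least 1.5-fold higher. Nos2, which makes nitric oxide from arginine (chromosome 11, 78920787 to 78960254, mm10), was at 308 CPM in the WT library and 85.1 CPM in the GVHD library, 3.61-fold higher (3.49 to 3.75). Il1b, the gene for interleukin 1β, was at 3865 against 1692 CPM, 2.28-fold higher (2.27 to 2.30). Slc7a2, a transporter that brings arginine into the cell, was at 593 and 240 CPM, and Acod1, which makes itaconate, at 505 and 254 CPM. The subunits of the T-cell-polarising cytokines were far rarer, and Il12b and Il12a were further apart in summed level. Il12b was at 9.69 CPM in WT recipients and 1.38 CPM in GVHD mice, 7.02-fold higher (5.35 to 9.36), and Il12a was 4.81-fold higher (3.69 to 6.36). Only 87 of 3365 WT cells (2.59%) and 27 of 2054 GVHD cells (1.31%) had an Il12b UMI. For Il12a the shares were 6.89% and 1.80%. These intervals count UMIs, of which 1 cell can hold many. Il23a, the subunit particular to interleukin 23, was at 37.8 against 12.8 CPM.

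Not every inflammatory gene followed this direction. Tnf was at 135 CPM in the WT library and 141 CPM in the GVHD library, and Nlrp3, the inflammasome sensor, at 499 and 544 CPM. The chemokine gene Cxcl9, a standard readout of interferon γ, was at 1203 and 983 CPM, a ratio of 1.22 (1.21 to 1.24). Il6 was the member past 1.5-fold in that direction, at 24.7 against 37.4 CPM, and was not past it with TMM scaling. Ptgs2, the inducible cyclooxygenase, was at 561 and 793 CPM, 1.42-fold lower in WT recipients (1.39 to 1.44).

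With shared barcodes left out, 13.7% of all measured genes were at least 1.5-fold higher and 14.4% lower, the shares against which every count for those cells below is to be read. Of the 25 proinflammatory members 14 were then at least 1.5-fold higher and 0 lower. Nos2 was then at 309 CPM in the WT library against 60.4 CPM in the 233 GVHD cells, 5.11-fold higher (3.94 to 6.75), and Il1b stayed 2.25-fold higher (2.14 to 2.36). Il23a was 1.55-fold higher (1.03 to 2.45) in these cells. Il12a had no UMI in them and Il12b only 3, with Il12b 3.08-fold higher (1.049 to 15.004) in the WT library. Among cells with a Ly6c2 UMI after the thinning described below, Il12b was 1.53-fold higher (0.805 to 3.12).

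A summed level cannot tell fewer cells with a transcript from less RNA per cell, so shares of cells were counted as well. After each cell was thinned to 2000 UMIs, 23.7% of 3261 WT cells (22.2 to 25.2) and 8.23% of 1993 GVHD cells (7.06 to 9.52) had a Nos2 UMI. Without thinning the shares were 42.5% and 23.9%. T-cell-gated cells of the same libraries, which should lack the gene, had it in 0 of 54 and 0 of 107 cells thinned alike, which allows up to 6.603% and 3.39% (upper ends of the exact intervals). Before thinning these T-cell-gated cells had medians of 4777 and 4025 UMIs. Il1b was found in 89.2% of WT and 71.5% of GVHD macrophages, beside 20.4% and 8.41% of T-cell-gated cells. For Inhba, a subunit of the activins, the shares were 29.2% and 13.7%.

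Arg1, which competes with NOS2 for arginine, went the other way. Its level was 146 CPM in the WT library and 228 CPM in the GVHD library, 1.56-fold lower (1.51 to 1.61), and thinned shares of cells were 11.4% and 18.9%. Cells with Nos2 and no Arg1 made up 19.2% of WT macrophages (17.9 to 20.6) and 6.07% of GVHD macrophages (5.06 to 7.21). Cells with Arg1 and no Nos2 made up 6.99% (6.14 to 7.92) and 16.8% (15.1 to 18.5). Both genes were found in 4.45% and 2.16% of cells, and neither in 69.3% and 75.01%. Cells with Nos2 alone thus outnumbered cells with Arg1 alone in the WT library, and the reverse held in the GVHD library, while most cells of either had neither transcript at this depth. Arg1 was 1.41-fold lower in the WT library without the shared barcodes, under the 1.5-fold mark.

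**Figure D2:**
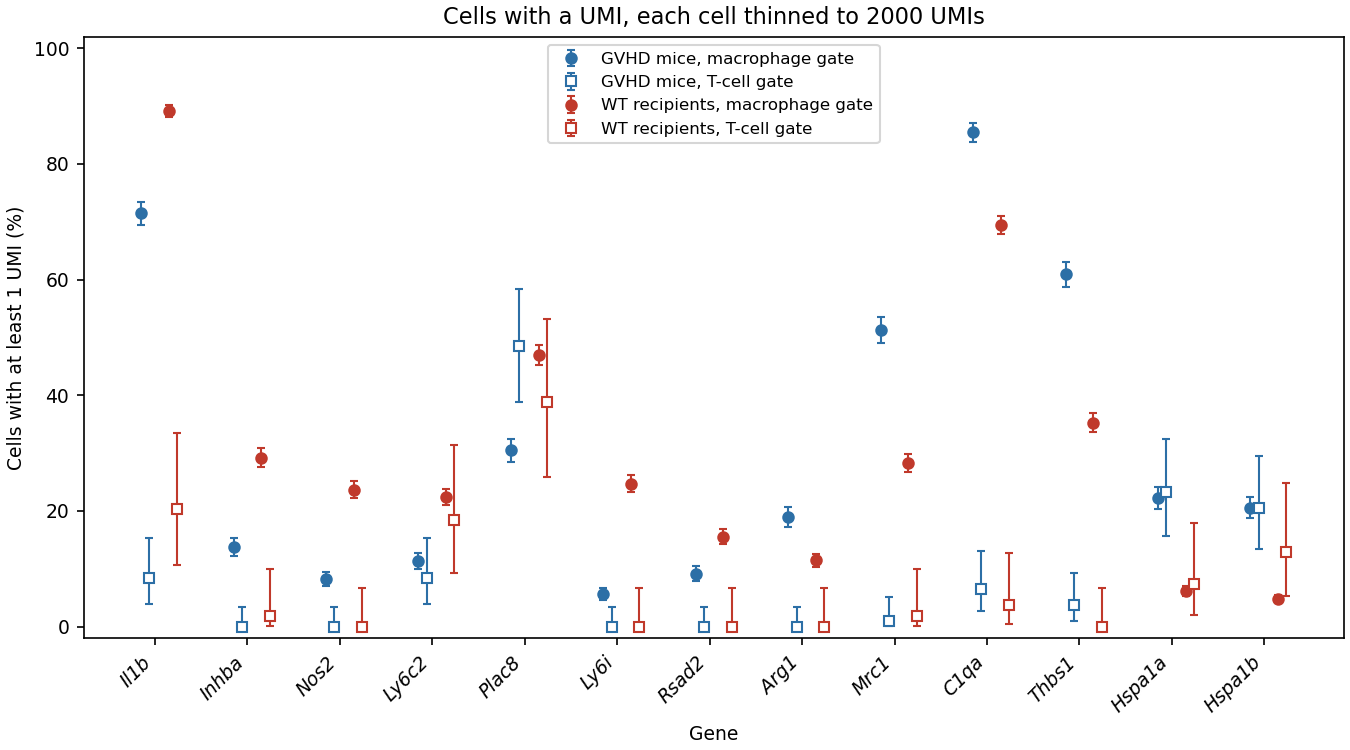
Share of cells with at least 1 UMI of each gene after thinning each cell to 2000 UMIs, in the macrophage gate (filled circles, 3261 WT and 1993 GVHD cells) and in the T-cell gate (open squares, 54 and 107 cells), with exact 95% intervals. Nos2, Inhba and Ly6i are more often found in WT macrophages, Mrc1, C1qa and Thbs1 in GVHD macrophages, and Hspa1a is as frequent in T-cell-gated cells as in macrophages of the same library.

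The wider list of alternative activation had no common direction. Of 21 measured members 2 were at least 1.5-fold higher and 4 lower in the WT library, against 5.19% and 6.36% of all measured genes. The median log2 ratio was -0.03. The 4 lower were Myc, Arg1, Mrc1 and Clec10a, of which 2 stayed past the mark with TMM and 1 with median-of-ratios scaling, under which the median was 0.02 and 0.04. Without shared barcodes 7 of 21 members were higher and 4 lower, beside 13.7% and 14.4% of all genes, with a median of 0.005. Mrc1, the mannose receptor, was at 292 against 453 CPM, and 28.2% of thinned WT cells had it against 51.3% of GVHD cells. Retnla (chromosome 16, 48842551 to 48844461), a secreted product of interleukin 4 stimulated macrophages, was by contrast higher, at 46.5 CPM in WT recipients and 4.21 CPM in GVHD mice, 11.03-fold (9.47 to 12.9). Few cells carried it: 4.13% of WT cells and 1.12% of GVHD cells without thinning. Retnla was 15.1-fold higher among cells without a Ly6c2 UMI after thinning and 1.15-fold higher (0.80 to 1.67) among cells with one. The GVHD cells without a shared barcode had 0 Retnla UMIs, which makes the WT level at least 14.8-fold higher against a floor of 3 UMIs. Over all gated cells the chemokine gene Ccl17 was the other member higher, at 293 and 115 CPM, a ratio of 2.55. The Ccl17 ratio was 1.03 (0.924 to 1.15) among cells with a Ly6c2 UMI after thinning, and 4.26 without shared barcodes.

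Markers of recent monocytes leaned towards the WT library and markers of settled macrophages were split. Of 24 monocyte genes 8 were at least 1.5-fold higher and 1 lower, against 5.19% and 6.36% of all measured genes, and the median log2 ratio was 0.37. Ly6c2, the gene for the Ly6C antigen (chromosome 15, 75108158 to 75111970), was at 196 CPM in the WT library and 81.1 CPM in the GVHD library, 2.42-fold higher (2.33 to 2.52). The Ly6c2 ratio was 5.47 in cells of 2000 to 5000 UMIs and 5.34 in those of 5000 to 10000. It was 2.12 in cells of 10000 to 20000 UMIs and 1.90 in deeper ones. Ly6c2 is also in a list of strain-variable genes, of which 5 of 17 were higher and 1 lower, against the same shares. The strains are not known and their part was not tested. Plac8 was at 934 and 321 CPM. Ccr2, the receptor by which monocytes leave the marrow, was however lower, at 250 against 340 CPM. T cells carry Ly6c2 and Plac8 as well: 18.5% of thinned T-cell-gated WT cells and 8.41% of GVHD ones had a Ly6c2 UMI, near the 22.4% and 11.3% of macrophages. The part of RNA from other cells in the Ly6c2 difference was not tested.

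Of 18 measured genes of resident macrophages 4 were at least 1.5-fold higher in WT recipients and 3 lower, against the same shares, and the median log2 ratio was -0.12. Timd4, a receptor for dying cells found on long-lived macrophages, was at 27.0 against 68.8 CPM, 2.55-fold lower (2.39 to 2.72). Selenop, a selenium carrier, was 1.61-fold lower (1.56 to 1.65). On the other side stood Mertk, another receptor for dying cells, at 140 and 87.9 CPM, and the fractalkine receptor gene Cx3cr1 at 60.8 and 32.0 CPM. C1qa, which marks mature gut macrophages, was at 1333 and 1426 CPM, yet found in 69.5% of thinned WT cells and 85.5% of GVHD cells. Among cells without shared barcodes 21 resident genes were measured, 4 of them at least 1.5-fold higher and 8 lower, with a median of -0.42, beside 13.7% and 14.4% of all genes.

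Nos2, Inhba, Il1b, Arg1 and Mrc1 kept their direction both in cells with and in cells without a Ly6c2 UMI after thinning. By contrast, the intervals of Retnla, Ccl17 and Il12b given above included equal levels among cells with Ly6c2. Among thinned cells 730 WT and 226 GVHD cells had a Ly6c2 UMI, and 2531 and 1767 had none. Without thinning, 1601 of 3365 WT and 791 of 2054 GVHD cells had one. The cells counted here as without Ly6c2 therefore include cells that carry its transcript. Nos2 was 2.48-fold higher in the WT library among cells with Ly6c2 and 3.85-fold higher among cells without. For Inhba the ratios were 2.79 and 3.63, and for Il1b 2.75 and 2.12. Arg1 was 2.16-fold lower among cells with Ly6c2 and 1.48-fold lower among cells without, and Mrc1 2.47-fold and 1.41-fold lower. Both were thus under the 1.5-fold mark among cells without Ly6c2. Whether the ratios differ between these cells was not tested.

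**Figure D3:**
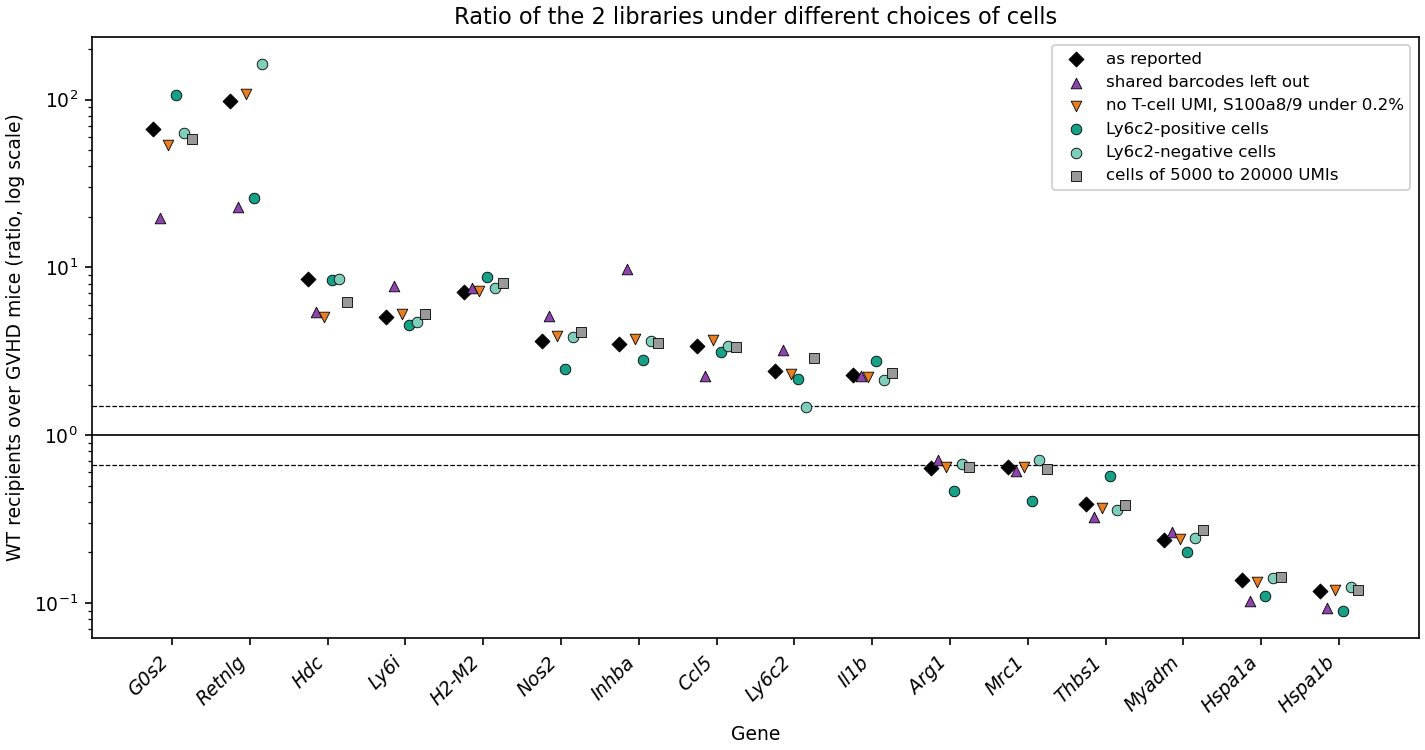
Ratio of the level in WT recipients to that in GVHD mice (log scale) for 16 genes, over all gated cells (black diamonds) and over other choices of cells. Solid and dashed lines mark equal levels and 1.5-fold. All points of Hspa1a and Hspa1b lie below and all points of Nos2, Inhba and Il1b above 1.5-fold, while Arg1 and Mrc1 lie on either side of it.

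Genes induced by type I interferon also leaned towards WT recipients. Of 24 measured members 12 were at least 1.5-fold higher and 1 lower, with a median log2 ratio of 0.59, against 5.19% and 6.36% of all measured genes. The promoters of those 12 were searched for the core of the interferon-stimulated response element, to which the ISGF3 complex and interferon regulatory factors bind. RefSeq promoters on GRCm38.p6 were at hand for 10 of them. The letters GAAA, any 2 bases, GAAA, on either strand in the 250 bases before the start, occurred in 6 of these 10. They occurred in 8 of the 18 measured members with a promoter (44.4%) and in 936 of 27025 genes overall (3.46%). The 6 promoters are shown around the match nearest the start, 5′ to 3′ on the gene's strand, with matches in capitals. The Ifit3 stretch opens with the last 6 letters of a second match that begins before it. They show what these genes share in sequence, and a match is a description, not a binding site.
Ifit1, chr19:34640774-34640843, plus strand: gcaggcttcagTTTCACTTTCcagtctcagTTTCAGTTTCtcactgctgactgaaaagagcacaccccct
Ifit3, chr19:34583377-34583446, plus strand: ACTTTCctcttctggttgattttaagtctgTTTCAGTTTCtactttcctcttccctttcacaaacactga
Oas1a, chr5:120907526-120907569, minus strand: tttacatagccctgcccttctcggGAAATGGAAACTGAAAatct
Oas1g, chr5:120887614-120887655, minus strand: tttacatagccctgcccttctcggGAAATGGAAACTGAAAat
Oas3, chr5:120777695-120777764, minus strand: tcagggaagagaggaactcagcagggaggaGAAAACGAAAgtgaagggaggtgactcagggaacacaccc
Rsad2, chr12:26456533-26456602, minus strand: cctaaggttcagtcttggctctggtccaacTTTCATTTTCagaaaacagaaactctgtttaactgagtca

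Ifit1, whose protein binds foreign capped RNA, was at 23.6 CPM in the WT library and 9.39 CPM in the GVHD library, 2.51-fold higher (2.24 to 2.82). It was found in 3.80% and 1.104% of thinned cells, beside 1.85% and 1.87% of T-cell-gated cells. Rsad2, the antiviral enzyme viperin, was at 151 and 67.8 CPM, 2.23-fold higher (2.14 to 2.33). Its shares of thinned cells were 15.5% and 9.18%, with no T-cell-gated cell positive in either library. Ifih1, the cytosolic sensor of double-stranded RNA, was at 187 and 80.5 CPM. Oas1a, Oas1g and Oas3, which make the second messenger that activates RNase L, were at 35.5 against 18.9, 10.1 against 4.94 and 22.8 against 11.6 CPM. In the promoters above, the printed stretches of Oas1a and Oas1g both hold 2 overlapping matches within the same run of letters. The genes are paralogs, and whether UMIs were split between them was not tested. Isg15 and Ifi204 were outside this pattern, at 257 against 273 CPM and 177 against 182 CPM. Siglec1, a sialic acid receptor also under interferon control, was the member lower, at 3.79 against 6.16 CPM. Without shared barcodes 15 of 24 were at least 1.5-fold higher, 0 lower, and the median was 0.79, although Ifit1 then rested on 2 UMIs in GVHD cells.

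Interferon γ genes differed less. Of 27 measured members 4 were at least 1.5-fold higher and 2 lower, against 5.19% and 6.36% of all measured genes. The median log2 ratio was 0.12. Gbp5, a guanylate-binding protein that promotes inflammasome assembly, was at 228 and 112 CPM. Ciita, the master regulator of MHC class II, was at 127 and 80.3 CPM. Gbp2, Gbp3 and Gbp7 were at 678 and 622, 140.0 and 140.3, and 290 and 294 CPM. Irgm1, a GTPase of vacuole defence, was lower in WT recipients, at 33.1 against 70.0 CPM. Without shared barcodes the list counted 13 higher and 3 lower of 28, beside 13.7% and 14.4% of all genes, and its median was 0.34.

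Most presentation genes were within 1.5-fold. Of 14 measured MHC class II genes 3 were at least 1.5-fold higher and 0 lower, against 5.19% and 6.36% of all measured genes. The 3 were Ciita and the 2 subunits of the peptide-loading inhibitor H2-O, H2-Oa and H2-Ob. Of 18 measured class I genes 2 were higher and 1 lower. The median log2 ratios were 0.11 for class II and 0.01 for class I. The class II chain gene H2-Aa was at 4646 and 5148 CPM, and Cd74, the invariant chain, at 6823 and 7160 CPM. B2m, the light chain of class I, was at 2832 CPM in the WT library against 4095 CPM in the GVHD library.

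Among secreted signals, Inhba was one of the 12 genes furthest up in the WT library. Its level (chromosome 13, 16011851 to 16031621) was 498 CPM in WT recipients and 142 CPM in GVHD mice, 3.50-fold higher (3.40 to 3.59). Without shared barcodes the Inhba ratio was 9.79 (7.38 to 13.3), from 48 UMIs in GVHD cells. Of 19 measured chemokine genes 5 were at least 1.5-fold higher and 1 lower, against 5.19% and 6.36% of all genes, with a median of 0.18. Ccl5, which draws T cells, was at 820 and 241 CPM, 3.40-fold higher (3.33 to 3.47). It is also a T-cell gene, found in 85.2% of thinned T-cell-gated WT cells and 74.8% of GVHD ones, beside 39.6% and 21.5% of macrophages. Restricted to cells with no T-cell UMI and under 0.2% of S100a8 and S100a9 its ratio was 3.71. Ccl4 was at 429 and 214 CPM. Ccl2, the ligand of CCR2, was the chemokine lower in the WT library over all gated cells, at 57.0 against 110 CPM. Without shared barcodes 7 of 20 measured chemokine genes were higher and 3 lower, beside 13.7% and 14.4% of all genes, with a median of 0.33.

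Some tissue-remodelling genes were lower in WT recipients. Of 22 measured genes of repair and growth 2 were at least 1.5-fold higher, Inhba and Igf1, and 4 lower, against 5.19% and 6.36% of all genes, with a median log2 ratio of -0.21. Without shared barcodes 6 were higher and 6 lower and the median was -0.04, so the list as a whole is given no direction. Thbs1 (chromosome 2, 118111876 to 118127133), a matrix protein that activates latent TGFβ, was at 351 against 900 CPM, 2.56-fold lower (2.52 to 2.61), and found in 35.3% and 61.0% of thinned cells. The matrix metalloproteinase genes Mmp8, Mmp13 and Mmp19 were 2.03-fold, 1.83-fold and 1.69-fold lower. In the coagulation list 3 members were higher and 6 lower of 16, against the same shares. Among the lower ones the urokinase gene Plau was at 24.1 against 68.5 CPM and its receptor gene Plaur at 306 against 561 CPM. The lower ones also included Serpinb2, Thbd and Pros1. The higher ones were clotting factors, with F13a1 at 52.9 and 29.6 CPM, F3 at 13.3 and 7.49 CPM and F5 at 6.34 and 3.56 CPM. Among cells without shared barcodes the coagulation counts were 8 higher and 4 lower, beside 13.7% and 14.4% of all genes, and the median went from 0.06 to 0.45.

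Heat shock and early stress genes leaned the other way. Of 25 measured members of the stress list 0 were at least 1.5-fold higher and 7 at least 1.5-fold lower, against 5.19% and 6.36% of all genes, with a median log2 ratio of -0.32, and 5 were lower with median-of-ratios scaling. Hspa1b was at 35.4 CPM in the WT library and 299 CPM in the GVHD library, 8.45-fold lower (8.04 to 8.88). Hspa1a was at 41.0 and 301 CPM, 7.34-fold lower (7.004 to 7.69). Both encode the inducible HSP70 chaperone and lie close together on chromosome 17. They are near-identical copies, so how UMIs divide between them is uncertain. The RefSeq promoters (GRCm38.p6) show how alike they are: the 100 bases before the start match in 99 positions, with the letter that differs in capitals.
Hspa1a, chr17:34972157-34972256, minus strand: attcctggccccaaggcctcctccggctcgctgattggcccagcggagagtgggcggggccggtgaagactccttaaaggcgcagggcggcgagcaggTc
Hspa1b, chr17:34959239-34959338, minus strand: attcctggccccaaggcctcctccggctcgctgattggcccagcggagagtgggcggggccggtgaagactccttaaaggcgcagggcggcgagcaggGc

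The co-chaperone genes Dnajb1 and Dnaja1 were 1.95-fold and 1.68-fold lower in WT recipients. Zfp36, Nr4a1 and Klf4, early-response genes, were at 353 against 586, 113 against 177 and 482 against 748 CPM. Fos, Jun and Egr1, the best-known genes of this response, were nevertheless level, with Fos at 827 and 833 CPM, Jun at 321 and 336 CPM and Egr1 at 230 and 231 CPM.

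The HSP70 genes were lower outside macrophages too. In T-cell-gated cells Hspa1b was at 127 CPM in the WT library (43 UMIs) and 557 CPM in the GVHD library (396 UMIs), 4.39-fold lower (3.20 to 6.16), and Hspa1a was 3.22-fold lower (2.36 to 4.49). Dnaja1 was 1.01-fold lower (0.843 to 1.22) in these cells. Thinned shares of cells with Hspa1a were 6.16% and 22.2% in macrophages and 7.41% and 23.4% in T-cell-gated cells of the WT and GVHD libraries. Il1rapl1, another of the genes furthest down, was 6.28-fold lower in macrophages (5.63 to 7.02) and 4.86-fold lower in T-cell-gated cells, the latter from 5 and 51 UMIs. By library the Hspa1b level was highest in the BM cells, at 1089 CPM, and 33.9 CPM in IL-34-/- recipients. Handling of each sample and recipient group cannot be told apart.

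Several of the genes furthest up in WT recipients are known from neutrophils. G0s2, an inhibitor of lipolysis, was at 167 CPM in the WT library and 2.51 CPM in the GVHD library, 66.5-fold higher (55.0 to 81.3). Retnlg was at 48.4 and 0.492 CPM, 98.4-fold higher (64.2 to 159). Hdc, which makes histamine, was 8.50-fold higher (7.72 to 9.36), and Lcn2, an iron-siderophore trap, 7.31-fold higher (6.27 to 8.56). In cells with at least 5% of UMIs from S100a8 and S100a9, of which the WT library held 86 and the GVHD library 4, these genes were at 5971, 4814, 1935 and 4347 CPM in the WT library. Of the neutrophil marker list 8 of 12 genes were measured, and the list summed to 1197 against 374 CPM. At least 1.5-fold higher were 6 and lower 1, against 5.19% and 6.36% of all measured genes. Both the sum and the 6 higher genes include S100a8 and S100a9, at 246 against 28.8 and 391 against 13.3 CPM, which the gate limits. Cxcr2, a defining neutrophil receptor, was at 8.99 against 0.445 CPM.

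The ratios of these genes depended on the choice of cells. Without shared barcodes G0s2 was 19.6-fold higher (9.92 to 45.3) from 8 UMIs in GVHD cells, and Retnlg 22.9-fold higher (6.34 to 189) from 2. In cells of 2000 to 5000 UMIs G0s2 was 4.72-fold higher (2.17 to 12.2), from 7 UMIs in GVHD cells. It was 53.0-fold higher in cells of 5000 to 10000 UMIs, 60.9-fold in those of 10000 to 20000 and 93.2-fold in deeper ones. Lcn2 was 3.35-fold higher (2.69 to 4.22) among cells with a Ly6c2 UMI after thinning. In cells with no T-cell UMI and under 0.2% of S100a8 and S100a9, 2 limits set together, G0s2 was at 75.2 against 1.40 CPM, 53.6-fold higher, and Retnlg at 10.8 against 0.100 CPM, the latter from 4 UMIs. Hdc was 5.06-fold and Lcn2 5.62-fold higher. In the macrophage gate of the WT T-cell library, which had 6 neutrophil-gated cells, G0s2 was at 5.14 CPM, Retnlg at 0.902 CPM, Hdc at 8.60 CPM and Lcn2 at 13.5 CPM. The part of neutrophil RNA in these differences was not tested beyond these values.

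Ly6i and H2-M2, also among the 12 furthest up, were not higher in neutrophil-gated cells. Ly6i, a Ly6 family surface protein, was at 180 against 35.4 CPM, 5.09-fold higher (4.82 to 5.37), and at 147 CPM in the neutrophil-gated WT cells. H2-M2, a non-classical class I gene, was at 96.5 against 13.6 CPM, 7.11-fold higher (6.52 to 7.76), with 0 UMIs in neutrophil-gated cells of either library. Without the shared barcodes their ratios were 7.77 and 7.50. Clmp, an adhesion protein, and Ntng2, a netrin-related membrane protein, were 4.57-fold and 5.13-fold higher.

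At the other end, the genes furthest down beside Hspa1a, Hspa1b, Il1rapl1 and Thbs1 had no list in common. Ccdc162 was at 15.3 CPM in the WT library and 100.4 CPM in the GVHD library, and Cc2d2b at 21.3 and 83.5 CPM. Myadm, a membrane protein of myeloid cells, was at 27.7 and 117 CPM, and Emp1, an epithelial membrane protein, at 68.1 and 193 CPM. Ccnf, an F-box protein of the cell cycle, was at 7.95 and 39.1 CPM, Tmem267 at 8.87 and 41.3 CPM, and Rccd1 at 5.32 and 21.1 CPM. The small nucleolar host gene Snhg6 was at 22.96 and 80.2 CPM, and in T-cell-gated cells at 29.5 and 80.2 CPM.

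Epithelial transcripts were also more abundant among WT macrophages. Of 21 markers, summing to 197 against 78.1 CPM, 11 were measured. Of these 10 were at least 1.5-fold higher and 0 lower, against 5.19% and 6.36% of all measured genes. Krt8, a keratin of the gut lining, was at 28.1 and 5.78 CPM, and Reg3b, a lectin secreted against bacteria, at 7.69 and 0.468 CPM. Krt8 was found in 6.78% of thinned WT macrophages beside 7.41% of T-cell-gated WT cells, and in 1.35% beside 1.87% in the GVHD library. These shares were at or below those of the T-cell gate, which were known only within 2.06% to 17.9% and 0.227% to 6.59%, so no expression by macrophages is read from them. Among cells without shared barcodes 5 of the 11 were higher and 3 lower.

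Csf1r, the receptor of the axis that the series is about, was nearly level, though it is a gate gene. It was at 488 and 501 CPM, a ratio of 0.974 (0.956 to 0.992). Csf1, its other ligand, was at 32.5 and 21.3 CPM, 1.53-fold higher (1.41 to 1.66), and 1.22-fold higher under the stricter T-cell and neutrophil limits. Il34 itself was scarcely detected, with 25 UMIs in the WT library and 6 in the GVHD library, a ratio of 3.49 (1.40 to 10.4). Csf3r, the receptor of the granulocyte factor G-CSF and a neutrophil marker, was 2.25-fold higher (2.12 to 2.40). Of 15 measured members of the list 2 were at least 1.5-fold higher and 0 lower, against 5.19% and 6.36% of all measured genes.

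Set beside the other libraries, genes fell into different orders. Nos2 stood at 0.514 CPM among the BM cells, 85.1 among those of GVHD mice, 308 for WT and 515 for IL-34-/- recipients, and 248 in the macrophages of the WT T-cell library. Inhba had the same order of the 4 sorted libraries, at 4.69, 142, 498 and 705 CPM. Ly6c2 was at 44.0, 81.1, 196 and 289 CPM, but only 74.6 CPM in the macrophages of the WT T-cell library, below the GVHD level. Il1b did not separate BM from GVHD, at 1753 and 1692 CPM, and reached 3865 CPM in WT and 4526 CPM in IL-34-/- recipients. Retnla ran differently, with 233 CPM in BM cells, 4.21 CPM in GVHD mice, 46.5 CPM for WT and 65.98 CPM for IL-34-/- recipients. Arg1 was at 5.48, 228, 146 and 180 CPM in this order, so the WT level lay far nearer to the GVHD level than to that of BM. Mrc1 was highest in BM, at 975 CPM, then 453, 292 and 142 CPM. With 1 library per group, neighbours in these orders cannot be set against a spread between mice.

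**Figure D4:**
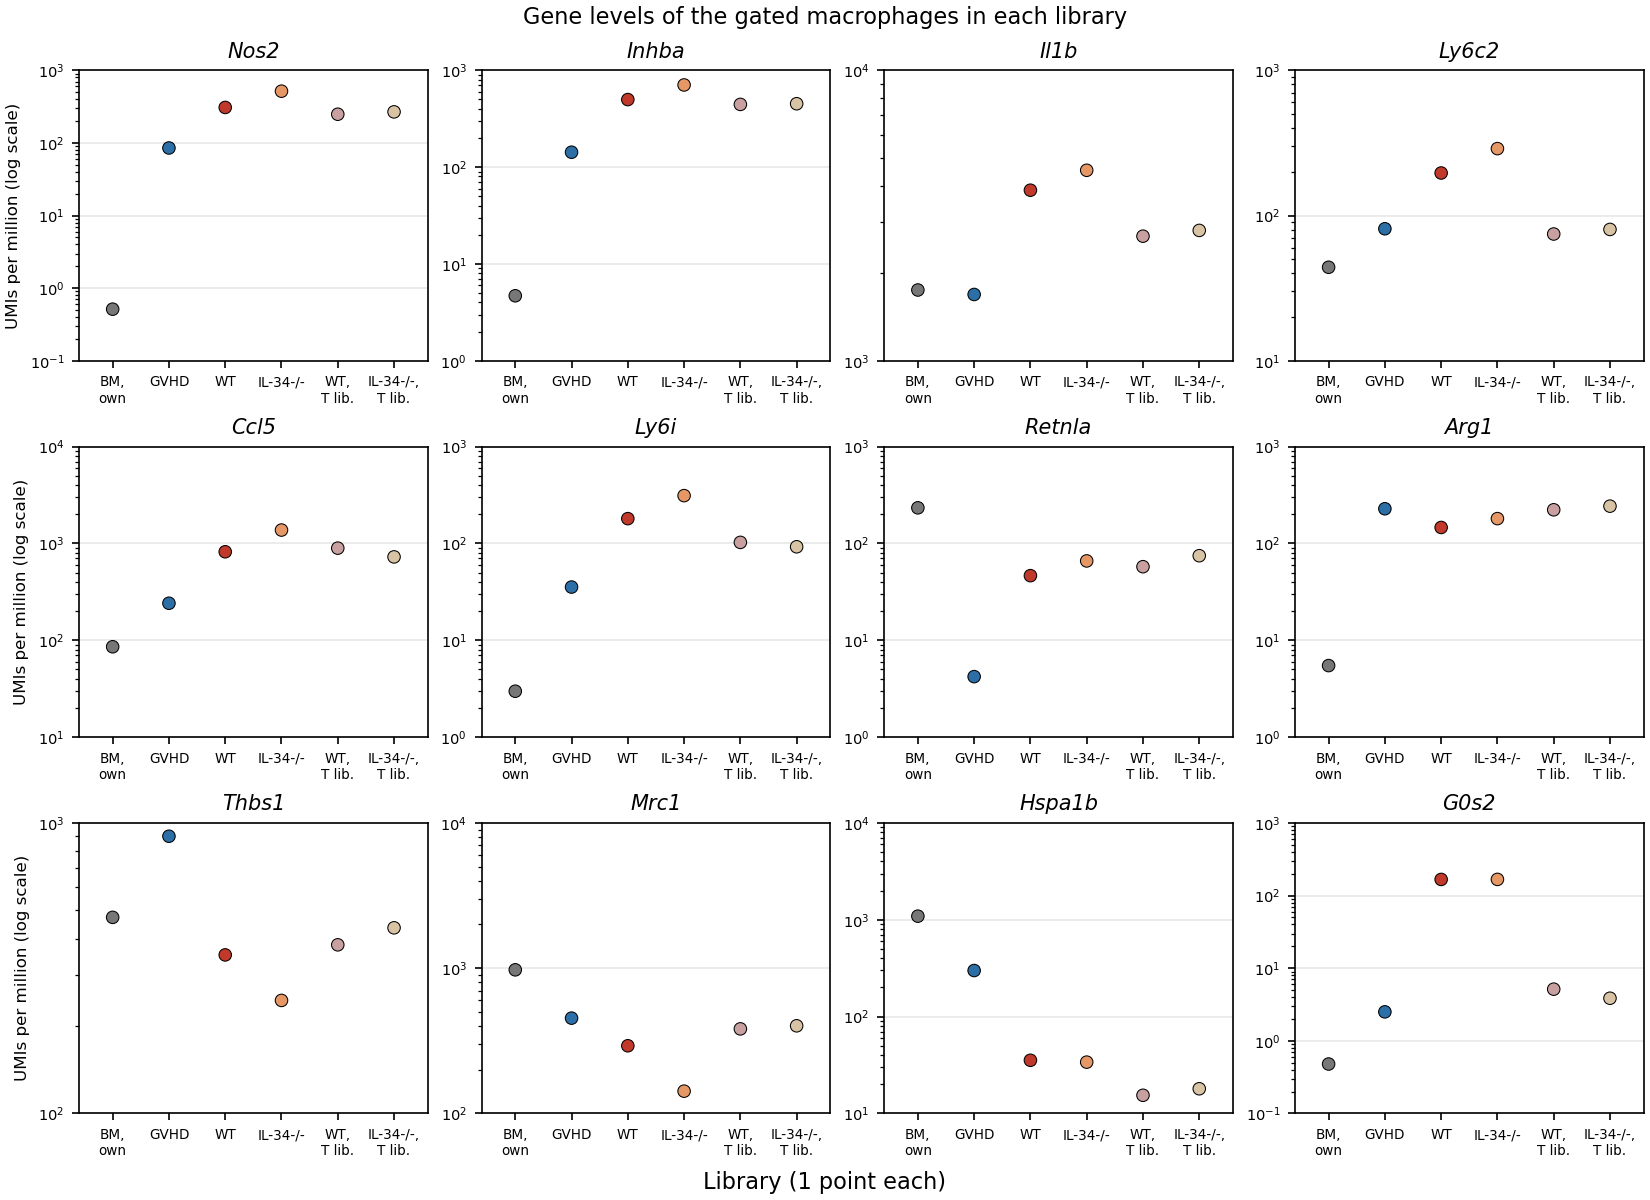
Level of 12 genes in gated macrophages of each library, in CPM on log axes with 1 point per library. The first 4 columns are the sorted macrophage libraries of BM mice (cells with no barcode shared with GVHD), GVHD mice, WT recipients and IL-34-/- recipients, the last 2 the macrophages found in the T-cell libraries. Nos2 goes from 0.514 in BM over 85.1 in GVHD to 308 in WT, and Hspa1b from 1089 over 299 to 35.4.

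Counted by list, the pattern was uneven, beside 5.19% higher and 6.36% lower over all measured genes. Proinflammatory, type I interferon, antimicrobial, Fc receptor and monocyte genes had the largest shares of members higher in WT recipients beside the neutrophil and epithelial markers. The antimicrobial list counted 7 higher and 0 lower of 16, among them Lcn2, Slpi and Pglyrp1, which other cells such as neutrophils make too. The Fc receptor list counted 3 higher and 0 lower of 8, namely Fcer1g, Fcrls and Trim21. With a floor of 20 CPM 1 of 6 was higher, and without shared barcodes Trim21 turned to a log2 ratio of -0.20. Stress and coagulation genes had the largest shares lower. Cell cycle genes, with 0 higher and 2 lower of 23 and a median of -0.12, turned to 15 higher and 2 lower with a median of 0.77 when shared barcodes were left out, so no direction is given for them.

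**Figure D5:**
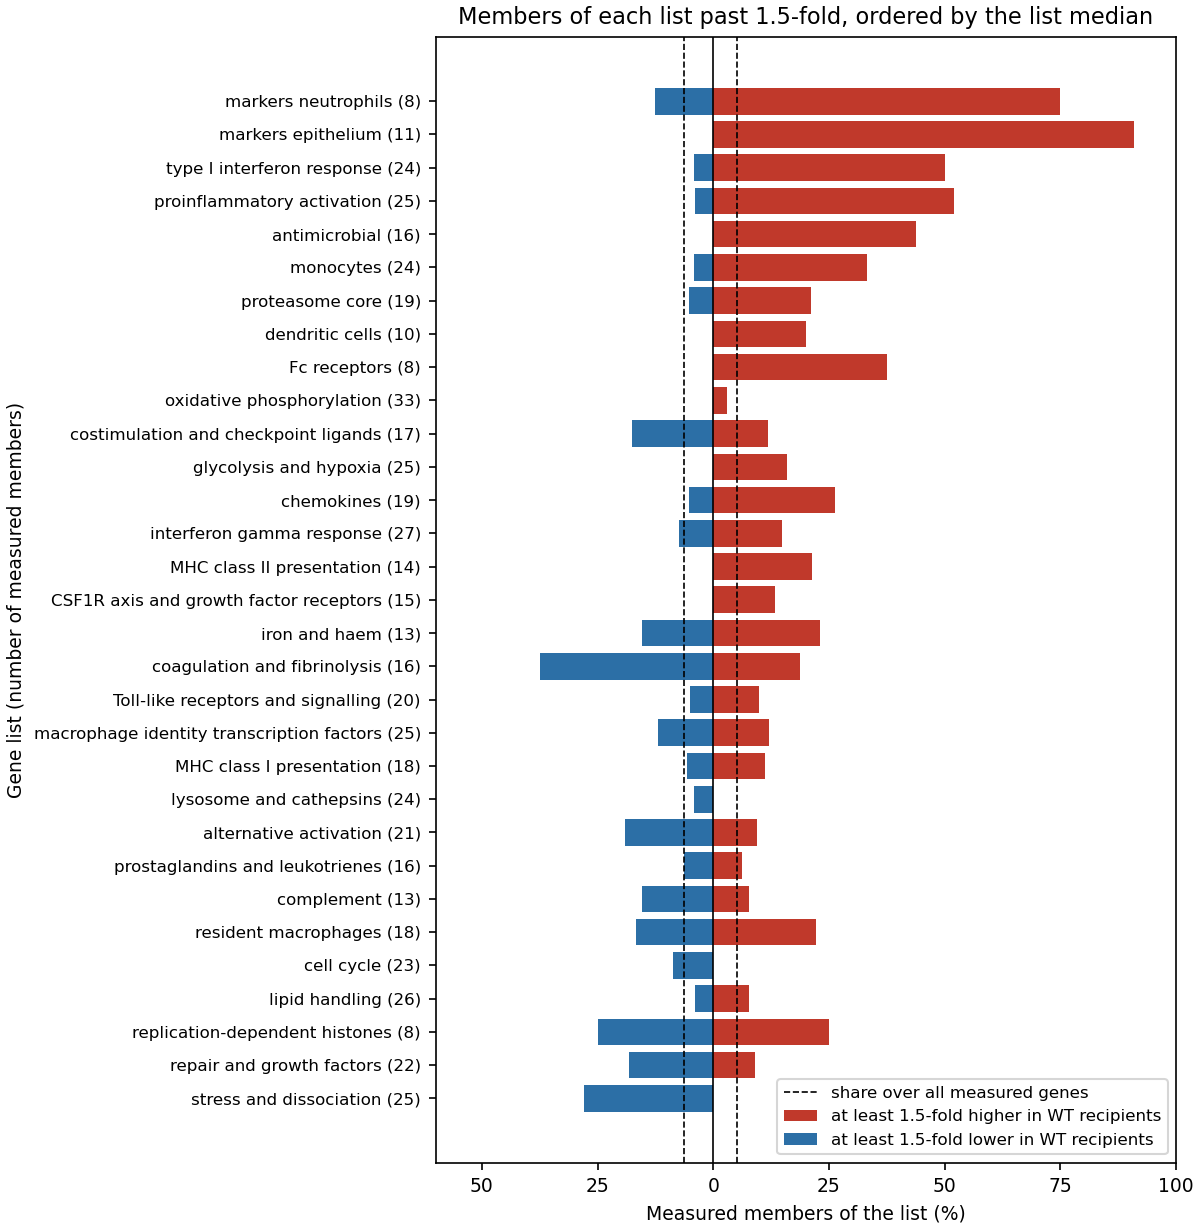
Share of each list's measured members at least 1.5-fold higher (red, right) or lower (blue, left) in WT recipients than in GVHD mice, in percent, for lists with at least 6 measured members, whose number is in brackets. Dashed lines mark the shares over all measured genes, 5.19% and 6.36%, and lists are ordered by their median. Stress genes are at the bottom with 7 of 25 lower and 0 higher.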

How the data were processed

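The authors deposited, for each library, a matrix of UMI counts per gene and barcode, made with Cell Ranger 7.0.1 and mm10 per the submitters' processing notes. The matrices held whole numbers for 32285 genes. UMIs were summed over gated cells and divided by their total (CPM). Genes with at least 5 CPM in 1 library counted as measured and at least 1.5-fold as past the mark. Ratios have exact conditional binomial, levels exact Poisson and shares exact Clopper-Pearson 95% intervals. A count of 0 was given a floor of 3 counts. Scrublet (in Scanpy 1.11.5) called 0 doublets in either library, too few to have worked, so doublets were kept, and the expected 339 and 90 highest scores were left out as an alternative. The T-cell gate asked for at least 3 T-cell UMIs and at most 1 myeloid UMI.

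Named genes came from both ends of the log2 ratio, computed after adding 5 CPM: 12 at each end, taken from genes reaching 50 UMIs and 20 CPM. Mitochondrial, ribosomal, haemoglobin, immunoglobulin, T-cell receptor, sex-linked, Gm, Rik and gate genes were left out of these 24. Up to 4 members of each of 39 lists, furthest in the direction of its median, 11 fixed genes, and strain-variable and sex-linked genes were added. Other genes named in the text were chosen after their values were seen, as were the promoters and stretches shown. The members and lists were chosen with earlier results of these data known.

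Alternatives were TMM (edgeR 4.0.16) and median-of-ratios (DESeq2 1.42.0) size factors, other filters, gates, floors and subsets of cells. Positions are from GENCODE M21, sequences from RefSeq (GRCm38.p6). The ratio and interval code was tested on simulated counts. Some members of the lists are counted but not reported by name here.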

Additional observations from a re-analysis of the deposited data

How the results depend on the processing

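Of 107 named genes at least 1.5-fold apart, 105 kept their direction in all of the 17 alternatives that gave a value. Trim21 turned to a log2 ratio of -0.20 with shared barcodes left out. Bhlhe41 turned to -0.63 among Ly6c2-positive cells, those with a Ly6c2 UMI after thinning. Of 32 list medians, 19 kept their sign in all 19 alternatives. With shared barcodes left out, genes at least 1.5-fold higher numbered 1328 and lower 1397, and list medians were 0.34 for interferon γ, 0.42 for glycolysis and hypoxia, 0.77 for cell cycle and 0.28 for epithelial markers. Without a CPM floor the counts were 2675 and 3479, with a floor of 20 CPM 267 and 316. Lower genes numbered 897 after thinning and 1039 among Ly6c2-positive cells. In those cells medians were -0.0408 for chemokines, 0.36 for oxidative phosphorylation, -0.47 for lipid handling and -0.47 for cell cycle. The cell cycle median was -0.40 in cells of 5000 to 20000 UMIs, -0.35 after thinning and -0.42 without cycling cells. The gated share was 59.3% (WT) and 71.9% (GVHD) with looser filters, 71.9% and 79.0% with stricter ones, 61.8% and 74.4% with 10 myeloid UMIs, and 58.2% and 72.5% with no T-cell UMI and 0.2% of S100a8 and S100a9. Without that limit the WT share was 66.7%. The cause of these moves was not tested, except that leaving out shared barcodes leaves 233 GVHD cells.

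No paired analysis was possible because each group was 1 library. No test was made, so no result here can show how much mice vary. Il34 gave a value in 14 of the 17 alternatives, and those with none included shared barcodes left out and Ly6c2-positive cells. Il34 and genes under 5 CPM are limited by depth.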

Other observations

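Housekeeping machinery leaned towards WT recipients by small steps in list medians. Counts past 1.5-fold in this and the next paragraph are to be read against 5.19% higher and 6.36% lower over all measured genes. Of 19 proteasome genes 4 were at least 1.5-fold higher and 1 lower, with a median log2 ratio of 0.37. Psme2, an interferon-inducible activator subunit, was at 373 CPM in the WT library and 187 CPM in the GVHD library, 2.00-fold higher (1.94 to 2.05), while Psmb7 was lower, at 25.3 against 44.2 CPM. Of 33 oxidative phosphorylation genes 1 was past 1.5-fold, Ndufs6 at 110 and 71.4 CPM, a share below that of all genes, although the median was 0.25. Glycolysis and hypoxia genes counted 4 higher and 0 lower of 25. Egln3, an oxygen-sensing hydroxylase, was at 18.3 against 2.997 CPM, 6.10-fold higher (5.06 to 7.39), and Eno1, a glycolytic enzyme, at 260 against 140 CPM, while Slc2a1, the main glucose transporter, was at 155 and 174 CPM. The core of the hypoxia response element, ACGTG on either strand, occurred in 15 of 23 measured members of this list with a RefSeq promoter (65.2%) and in 4998 of 27025 genes overall (18.5%), and in 1 of the 3 higher members with a promoter.

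Iron handling differed at one very abundant gene. Fth1, the ferritin heavy chain, took 29281 CPM in the WT library and 18570 CPM in the GVHD library, 1.58-fold higher (1.57 to 1.58), while the light chain gene Ftl1 was at 4373 and 4135 CPM. Slc11a2, an iron importer, was at 37.9 against 70.4 CPM. Of 25 transcription factors of macrophage identity 3 were at least 1.5-fold higher (Mitf, Nr1h3 and Bhlhe41) and 3 lower (Cebpa, Nr4a1 and Klf4), of which 1 stayed past the mark with median-of-ratios scaling. Mitf, which drives lysosomal genes, was at 202 and 117 CPM, and Cebpa, needed for the myeloid lineage, at 26.4 and 58.4 CPM. Of 24 lysosomal genes 0 were higher and 1 lower, Ctsl at 245 against 368 CPM, which was not past the mark with TMM scaling. Among ligands for T cells, Tnfsf15 was at 19.2 and 7.45 CPM and Cd86 at 601 and 400 CPM, while Tnfsf9 was at 51.5 against 101 CPM. Y-linked genes were present in both libraries within 1.5-fold, with Ddx3y at 66.9 and 68.0 CPM.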
